A study of Mus musculus with 6 samples.

Results

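The genes described here are 9 components of nucleic acid sensing and of the signalling that leads from it to interferon regulatory factors (IRFs): Ifih1, Tlr3, Zbp1, Mavs, Tbk1, Ikbke, Irf3, Irf7 and Trex1. They were taken by gene symbol from the deposited expression table, which held all 9 among its 18057 genes. The study sequenced RNA of 4T1, a line grown from a mouse mammary carcinoma, in 6 libraries. DMSO, a solvent, was the treatment of 3 and BRQ that of the other 3, and the question was how inhibition of DHODH, which makes the pyrimidine precursor orotate in mitochondria, alters gene expression. The labels used here give no dose or duration, and the letters DHO stand in the titles of both groups without an explanation. Nothing in the labels says that replicates came from separate cultures, so the p-values measure the spread between these libraries, which may be technical.

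Cells carry receptors that recognise nucleic acids in places where they should not occur. RNA sensors in the cytosol signal through an adaptor on mitochondria, endosomal Toll-like receptors signal through adaptors of their own, and DNA in the cytosol is sensed through cGAS and STING. These routes converge on the kinases TBK1 and IKKε, which phosphorylate IRF3 and IRF7, the transcription factors that switch on type I interferon genes. Secreted interferon then acts through transcription factors that include STAT2 and IRF9 on interferon-stimulated genes, among which Irf7, Ifih1 and Zbp1 are counted. Depletion of pyrimidines is known to modulate this innate response in other cells.

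None of the 9 genes was too low to judge. Levels are given as FPKM, a read number scaled to gene length and to library size, and all 9 exceeded a mean of 1 FPKM over the 6 libraries, the minimum for testing. Reads recovered from the FPKM numbered 355 to 40073 per gene and library, in libraries of 31176706 reads (DMSO replicate 2) to 34326045 reads (BRQ replicate 3). The gene with the lowest mean over the 6 libraries, Ifih1, lay at the percentile 55.6 of all tested genes, and Irf7, the highest, at the percentile 98.98. Within a group of 3 the coefficient of variation of a member ran from 0.22% to 8.11%.

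BRQ was followed by changes in both directions. Irf7, Trex1 and Tlr3 were higher under BRQ, and Ifih1, Zbp1, Irf3, Ikbke and Mavs were lower, whereas Tbk1 did not pass the test. Called here means a Benjamini-Hochberg adjusted p under 0.05 in limma, fitted over all 10552 tested genes on log2(FPKM + 1). Of the 9 members 8 were called, beside 82.4% of all tested genes, so the count does not set these genes apart. The 3 rises stand beside 48.7% of all tested genes called higher, and the 5 falls beside 33.7% called lower. The values of the 3 BRQ libraries did not overlap those of the 3 DMSO libraries for 8 members, against 83.7% of all tested genes. Log2 fold changes are on the log2(FPKM + 1) scale, and n-fold values are ratios of mean FPKM. The 9 members had a median log2 fold change of -0.23, and all tested genes one of 0.12. In absolute size, 5 members changed by more than the median tested gene, which changed by 0.41.

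**Figure D1:**
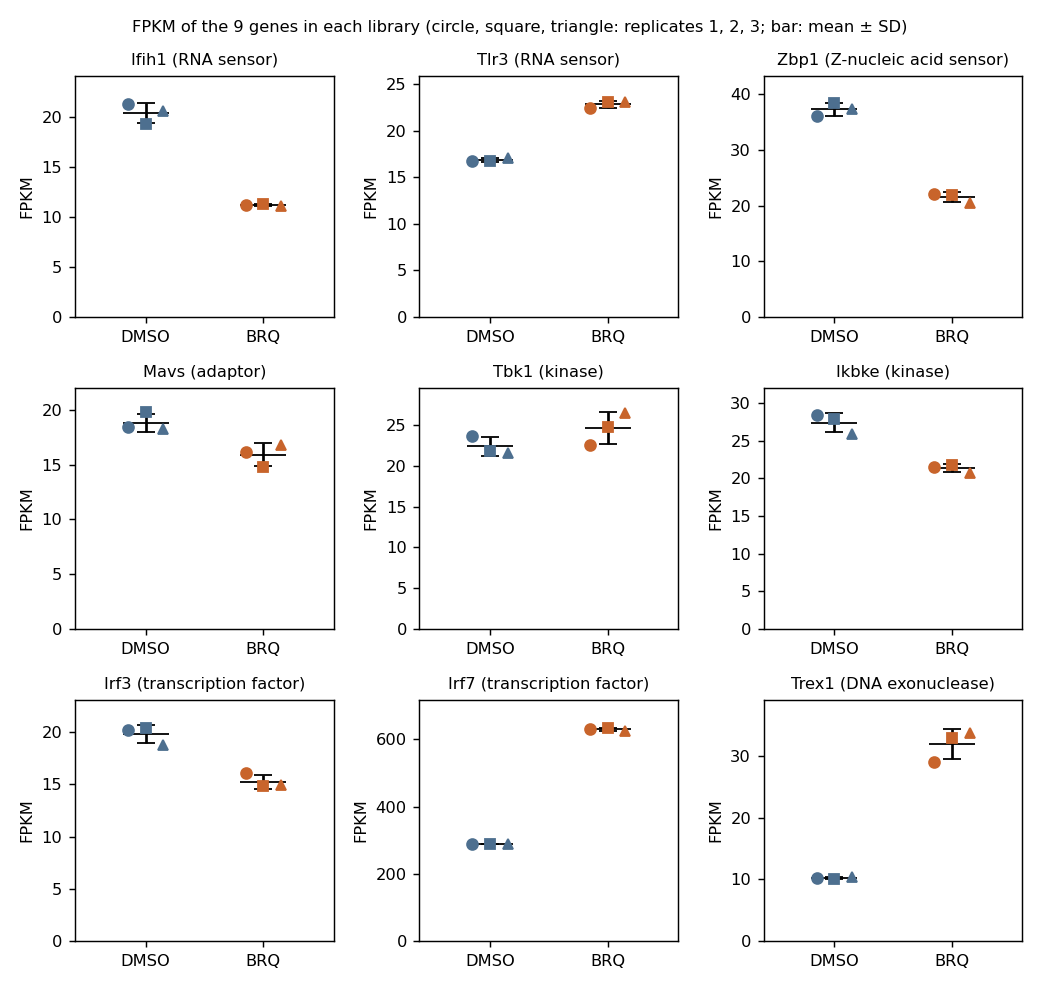
Each panel plots the FPKM of one gene on the y axis, from 0, against the group on the x axis, with a point per library and the mean ± SD of 3 libraries. The points of both groups overlap only for Tbk1, while Irf7 stands at 287 to 289 FPKM under DMSO and 625 to 635 under BRQ.

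The promoter windows of the members with the largest fall and the largest rises are shown first, because Ifih1 and Irf7 are both known as interferon-stimulated genes and yet moved in opposite directions. The windows come from RefSeq on GRCm38.p6, which is not the build of the deposited table, and hold 250 bases before and 50 after a start site on the gene's own strand. Of the 9 members 8 had a window. Zbp1 had none. Both strands were searched for GAAANNGAA and for the core of the interferon-stimulated response element, which is the same run with a further A at its end. The motifs were chosen with the expression values known. Capitals mark the matches.
Ifih1 (chr2:62646206-62646505, minus strand): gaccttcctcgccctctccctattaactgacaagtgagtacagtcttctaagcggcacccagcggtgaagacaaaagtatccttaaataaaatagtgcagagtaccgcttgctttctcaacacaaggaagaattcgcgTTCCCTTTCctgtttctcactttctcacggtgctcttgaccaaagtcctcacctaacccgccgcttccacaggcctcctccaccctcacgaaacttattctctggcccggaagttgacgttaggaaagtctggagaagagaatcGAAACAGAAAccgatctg
Irf7 (chr7:141266375-141266674, minus strand): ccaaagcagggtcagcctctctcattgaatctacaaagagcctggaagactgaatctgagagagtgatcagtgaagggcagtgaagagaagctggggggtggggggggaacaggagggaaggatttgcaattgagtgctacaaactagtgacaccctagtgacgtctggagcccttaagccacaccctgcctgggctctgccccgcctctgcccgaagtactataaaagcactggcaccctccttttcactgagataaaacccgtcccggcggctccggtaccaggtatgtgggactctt
Trex1 (chr9:109059674-109059973, minus strand): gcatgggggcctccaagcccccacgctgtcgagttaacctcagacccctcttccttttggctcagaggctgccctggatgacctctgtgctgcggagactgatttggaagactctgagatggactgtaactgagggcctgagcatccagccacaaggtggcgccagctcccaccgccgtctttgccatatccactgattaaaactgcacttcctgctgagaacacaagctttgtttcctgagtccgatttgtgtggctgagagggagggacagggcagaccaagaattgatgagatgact
The window of Ifih1 held GAAACAGAAA on its own strand, beginning at base 33 after the start site, and GAAAGGGAA on the opposite strand. The longer core was found in 3.44% of 32851 windows of this length and GAAANNGAA in 8.56%. No other window of a member held either run of letters, including a further window of Trex1 at chr9:109059202-109059501, which says only that these letters are not in these windows. A match in such a window is a description of the sequence and was not tested as a binding site. GGGCGG, the GC box of many promoters without a TATA box, was present in 35.7% of all windows and in those of Mavs, Irf3, Tlr3 and Tbk1 and the further one of Trex1.

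Among the sensors, the cytosolic and the endosomal receptor of double-stranded RNA moved apart. Ifih1 encodes MDA5, which recognises long double-stranded RNA in the cytosol. It measured 21.3, 19.3 and 20.6 FPKM in DMSO replicates 1, 2 and 3 and 11.1, 11.3 and 11.1 FPKM in BRQ replicates 1, 2 and 3. Every BRQ library lay far below every DMSO library, and the BRQ values were the tighter set. The mean fell 1.82-fold, from 20.4 ± 0.992 to 11.2 ± 0.119 FPKM (SD, n = 3, as for all means here; log2 fold change of -0.81 with an SE of 0.0455, limma adjusted p = 8.44e-08). Tlr3 encodes the Toll-like receptor that binds double-stranded RNA in endosomes. Its DMSO libraries held 16.7, 16.8 and 17.1 FPKM and its BRQ libraries 22.4, 23.1 and 23.1 FPKM. All BRQ values were above all DMSO values, with little spread in either group. The rise was 1.35-fold, from 16.9 ± 0.186 to 22.9 ± 0.38 FPKM (log2 fold change of 0.42 with an SE of 0.0364, limma adjusted p = 2.17e-06), and its size was close to that of the median tested gene. The ratio of Tlr3 to Ifih1 within a library went from 0.829 ± 0.0416 under DMSO to 2.05 ± 0.0369 under BRQ.

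Zbp1 encodes a sensor of nucleic acids in the Z conformation that can trigger necroptosis through the kinase RIPK3. It measured 36.0, 38.4 and 37.3 FPKM under DMSO and 22.1, 21.96 and 20.4 FPKM under BRQ. The groups were clearly apart, with the lowest BRQ value in replicate 3. The mean fell 1.73-fold, from 37.3 ± 1.2 to 21.5 ± 0.927 FPKM (log2 fold change of -0.77 with an SE of 0.0424, limma adjusted p = 7.56e-08). Its partner Ripk3 was near the limit of detection, with 1 to 10 recovered reads and at most 0.163 FPKM in a library, so a difference could not be judged at this depth. Mlkl, the executioner of necroptosis, fell from 55.5 ± 3.31 to 47.1 ± 0.61 FPKM, and Fadd, the adaptor of caspase-8, rose from 3.6 ± 0.503 to 7.87 ± 0.507.

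Mavs, the mitochondrial adaptor that relays signals from MDA5 and RIG-I, showed the smallest of the called changes. Its values were 18.5, 19.7 and 18.2 FPKM under DMSO and 16.2, 14.7 and 16.8 FPKM under BRQ. The groups did not overlap, but the gap between DMSO replicate 3 and BRQ replicate 3 was smaller than the range within either group. The mean went from 18.8 ± 0.828 to 15.9 ± 1.06 FPKM (log2 fold change of -0.23 with an SE of 0.0545, 95% interval -0.35 to -0.11, limma adjusted p = 0.00281).

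The paralogous kinases that phosphorylate IRF3 and IRF7 did not give the same result. Ikbke, which encodes IKKε, measured 28.4, 27.9 and 25.9 FPKM under DMSO and 21.5, 21.8 and 20.7 FPKM under BRQ. All BRQ libraries were lower than all DMSO libraries, and the mean fell 1.28-fold, from 27.4 ± 1.3 to 21.3 ± 0.532 FPKM (log2 fold change of -0.35 with an SE of 0.0434, limma adjusted p = 3.41e-05). Tbk1 measured 23.7, 21.8 and 21.6 FPKM under DMSO and 22.5, 24.8 and 26.5 FPKM under BRQ. BRQ replicate 1 lay among the DMSO values, and replicates 2 and 3 lay above them. Means of 22.4 ± 1.13 and 24.6 ± 2.0 FPKM (log2 fold change of 0.13 with an SE of 0.0596, 95% interval -0.004 to 0.26) gave a limma adjusted p of 0.0667. Its direction was not stable: the log2 fold change was -0.0041, -0.0099 and -0.03 after median-ratio, TMM and quantile scaling, which remove the shift of the median gene. Leaving out DMSO replicate 1 (0.17, adjusted p = 0.0334) or BRQ replicate 1 (0.19, adjusted p = 0.00973) made Tbk1 called higher, as did limma-voom on recovered reads (0.13, adjusted p = 0.0261), with a range of adjusted p from 0.00973 to 0.951 over its alternatives. Within a library the ratio of Tbk1 to Ikbke was 0.835, 0.782 and 0.834 under DMSO and 1.048, 1.14 and 1.28 under BRQ, so Ikbke had the higher FPKM in every DMSO library and Tbk1 in every BRQ library.

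The transcription factors moved in opposite directions. Irf7, the factor that amplifies type I interferon induction, was by level the leading member, with 287.9, 287.5 and 288.7 FPKM under DMSO and 629.5, 635.2 and 624.5 FPKM under BRQ. The groups were far apart and the replicates of each nearly equal. The mean rose 2.19-fold, from 288 ± 0.634 to 629.7 ± 5.33 FPKM (log2 fold change of 1.13 with an SE of 0.0202, limma adjusted p = 1.58e-10). This change was larger in size than that of 93.2% of tested genes. Irf3, the factor that is made constitutively and acts early, measured 20.2, 20.4 and 18.8 FPKM under DMSO and 16.0, 14.8 and 14.9 FPKM under BRQ. Every BRQ library was lower, and the mean fell 1.3-fold, from 19.8 ± 0.876 to 15.3 ± 0.685 FPKM (log2 fold change of -0.36 with an SE of 0.0483, limma adjusted p = 6.03e-05). The ratio of Irf7 to Irf3 was 14.3, 14.1 and 15.3 in the DMSO libraries and 39.3, 42.9 and 41.9 in the BRQ libraries. In the annotation (GENCODE M21, GRCm38) Irf3 shares 1065 bases with Bcl2l12 and Irf7 shares 45 bases with Phrf1, in each case on the opposite strand. No source used here states whether the counting used strand, so reads in the shared stretches cannot be assigned. Bcl2l12 fell as well, from 6.69 ± 0.504 to 4.7 ± 0.423 FPKM, and Phrf1 went from 19.1 ± 0.104 to 17.5 ± 0.68 FPKM, and their part in these results was not tested.

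Trex1, which encodes the exonuclease that degrades DNA in the cytosol and so keeps it from cGAS, had the largest change of the 9. It measured 10.2, 10.01 and 10.3 FPKM under DMSO and 29.1, 32.9 and 33.7 FPKM under BRQ. The lowest BRQ library, replicate 1, was still far above all DMSO libraries. The mean rose 3.14-fold, from 10.2 ± 0.153 to 31.9 ± 2.45 FPKM (log2 fold change of 1.56 with an SE of 0.0548, limma adjusted p = 4.73e-09), a larger change than that of 98.3% of tested genes. Trex1 went from the lowest member by level under DMSO to the second highest under BRQ. In the annotation its whole span of 1802 bases lies within that of Atrip, a checkpoint gene on the same strand, so reads may be shared between them. Atrip rose less, from 9.61 ± 0.252 to 14.8 ± 0.764 FPKM (log2 fold change 0.57, limma adjusted p = 2.03e-06), and its part in the value of Trex1 was not tested. Set against Zbp1, whose product also binds DNA, the ratio of Trex1 was 0.273 ± 0.0116 under DMSO and 1.49 ± 0.166 under BRQ.

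**Figure D2:**
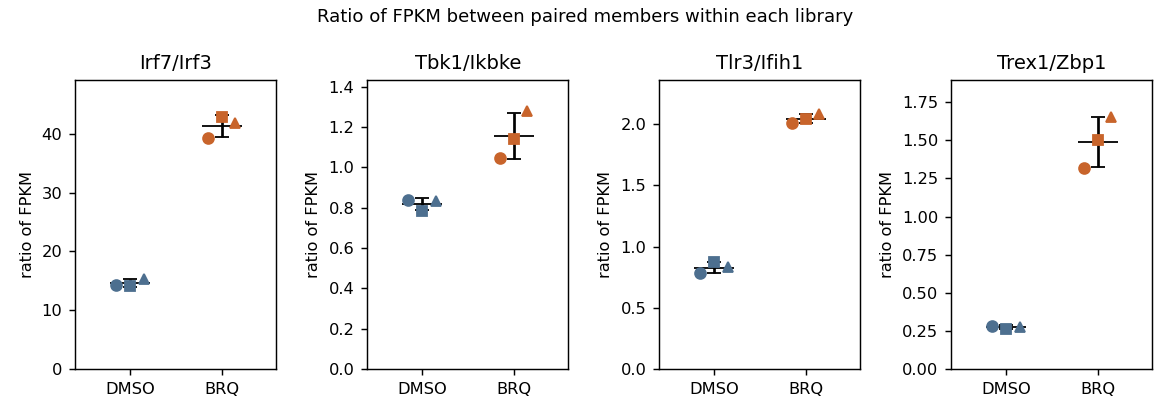
Each panel plots the ratio of the FPKM of 2 members within a library on the y axis, from 0, for DMSO and BRQ on the x axis, with a point per library and the mean ± SD of 3 libraries. In all 4 panels the BRQ libraries lie above the DMSO libraries, and every ratio except that of Irf7 to Irf3 goes from below 1 to above 1.

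Because FPKM is scaled to gene length, the levels of the members can be put in order within a group. Under DMSO the order by mean FPKM was Irf7, Zbp1, Ikbke, Tbk1, Ifih1, Irf3, Mavs, Tlr3 and Trex1. The values of Ifih1 and Irf3 overlapped, as did those of Irf3 and Mavs, and the other neighbours were apart in all 3 libraries. Under BRQ the order was Irf7, Trex1, Tbk1, Tlr3, Zbp1, Ikbke, Mavs, Irf3 and Ifih1, and here Tbk1 overlapped with Tlr3, Zbp1 with Ikbke, and Mavs with Irf3. Ifih1, by mean above Irf3, Mavs, Tlr3 and Trex1 under DMSO, stood last under BRQ. In DMSO replicate 2, however, Ifih1 (19.3 FPKM) was below Irf3 (20.4) and Mavs (19.7).

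**Figure D3:**
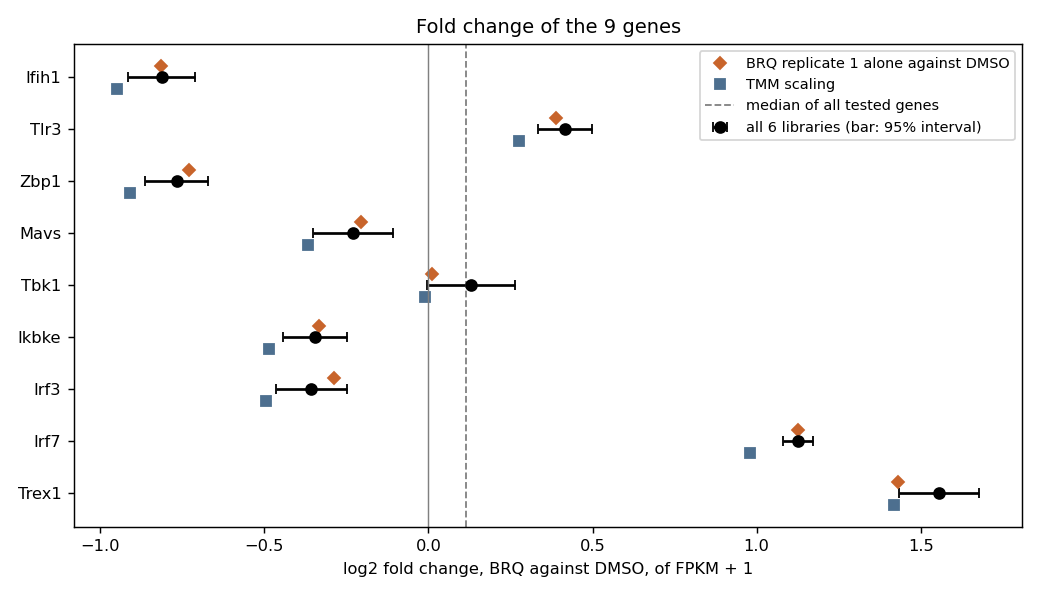
The x axis gives the log2 fold change of FPKM + 1, BRQ against DMSO, for each gene on the y axis; black points with 95% intervals use all 6 libraries, orange diamonds BRQ replicate 1 alone, and blue squares TMM scaling, and the dashed line is the median of all tested genes (0.12). The 8 called members keep their side of 0 in all 3 sets, while Tbk1 lies at 0.13, 0.01 and -0.0099.

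Transcripts of other cell types differed among the libraries. The 15 macrophage markers summed to 34.2 to 37.8 FPKM under DMSO and to 69.9, 124 and 117 FPKM in BRQ replicates 1, 2 and 3, all 15 being found in the table. Cd68 was at 18.7 to 23.5 FPKM under DMSO and 50.2 to 61.2 under BRQ, and Cd14 at 6.13 to 6.64 and 12.4 to 15.1, so both were raised in BRQ replicate 1 as well. Lyz2 was at 4.44 to 5.38 FPKM under DMSO, 3.56 in BRQ replicate 1 and 35.4 and 36.4 in replicates 2 and 3. Tyrobp was at 0 to 0.725 FPKM under DMSO, 0.66 in BRQ replicate 1 and 6.06 and 6.54 in replicates 2 and 3. Fcer1g (0 to 0.267, then 0.444, 1.69 and 1.86) and Spi1 (0.32 to 0.421, then 0.547, 1.257 and 1.255) were also highest in BRQ replicates 2 and 3. Adgre1, Csf1r and Ptprc stayed under 1 FPKM in every library, as did C1qa, C1qb, C1qc, Mrc1, Laptm5 and Itgam. The 12 hepatocyte markers summed to 19.0 to 22.9 FPKM under DMSO, 19.1 in BRQ replicate 1, 1.11 in replicate 2 and 0.662 in replicate 3. The 7 epithelial markers summed to 1559 to 1602 FPKM under DMSO and 1179.8 to 1205 under BRQ. Among them Krt8 (602 to 619 and 397 to 416 FPKM), Krt18 (577 to 596 and 453 to 477), Krt19 (99.3 to 109.9 and 53.4 to 60.9) and Krt14 (27.2 to 30.6 and 11.8 to 14.04) were lower in every BRQ library than in every DMSO library, as was Cdh1 by less (176 to 179 and 166 to 172), whereas Epcam was at 75.6 to 80.03 and 80.4 to 82.96 FPKM. The 3 markers of plasmacytoid dendritic cells, which make much Irf7, summed to 1030.1 to 1039.9 FPKM under DMSO and 1380.2 to 1421 under BRQ, nearly all of it Bst2, which is also an interferon-stimulated gene (1028 to 1038 and 1379 to 1419.5 FPKM). Tcf4 was at 2.14 to 2.197 FPKM under DMSO and 1.006 to 1.094 under BRQ, and Siglech, the most specific of the 3, was at 0 in 5 libraries and 0.0103 FPKM in BRQ replicate 3. T and NK cell, B cell and endothelial marker lists had no gene that reached 1 FPKM, and of the 3 fibroblast markers only Pdgfra did (4.31 to 4.49 FPKM under DMSO and 7.4 to 8.26 under BRQ). The part of these transcripts in the results on the members was not tested. When only BRQ replicate 1 was set against DMSO, and the spread taken from the DMSO libraries, limma gave log2 fold changes of 1.13 for Irf7, 1.43 for Trex1, 0.39 for Tlr3, -0.82 for Ifih1, -0.73 for Zbp1, -0.33 for Ikbke, -0.29 for Irf3 and -0.21 for Mavs. Each of these had the same sign as with all 6 libraries, and Tbk1 was at 0.01. In bulk RNA a change in the number of cells of a type and a change in RNA per cell cannot be told apart.

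The rest of the pathway was read from 10 lists by role, which held 134 genes of the table besides the members. Of these 110 were tested, 49 were higher and 41 lower, beside 48.7% and 33.7% of all tested genes. After median-ratio, TMM or quantile scaling 40 to 41 were higher and 54 to 56 lower. Of all 10552 tested genes, 4256 to 4338 were then higher and 4422 to 4467 lower. The list counts given below under the other scalings stand beside these numbers. The median log2 fold change was 0.03, against 0.12 for all tested genes. Named from the lists are called genes with the largest change in a direction. Ddx58, Cgas, Sting1, Irf9, Rnaseh2a, Rnaseh2c and some genes under 1 FPKM were added for their roles, with their values known. In all 24 list genes had a mean under 1 FPKM. With no filter 7 of them were called, beside 9534 of the 17181 genes then tested.

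Around MDA5, the RIG-I pathway had 6 of 14 genes higher and 6 lower, and 5 and 8 under the 3 other scalings. Ddx58, which encodes RIG-I, fell like Ifih1 but less, from 53.4 ± 1.25 to 39.5 ± 0.363 FPKM (log2 fold change of -0.43 with an SE of 0.0313, limma adjusted p = 5.86e-07). Rnf135, a ubiquitin ligase that activates RIG-I, rose from 6.47 ± 0.392 to 14.8 ± 0.446 FPKM, and Tomm70a, an import receptor of mitochondria, fell from 74.5 ± 0.96 to 49.0 ± 0.818. Of the other RNA sensors 1 of 12 was higher, Oas1a (86.6 ± 4.44 to 105 ± 1.26 FPKM), and 8 were lower, led by Oas2 (49.1 ± 3.49 to 15.5 ± 0.516 FPKM; log2 fold change of -1.60 with an SE of 0.0515, limma adjusted p = 2.8e-09); both encode synthetases of the second messenger that activates RNase L. Under the other scalings 1 was higher and 10 to 11 were lower. Oas1a was still called higher there, but at a log2 fold change of 0.09 to 0.14, against 0.28 as deposited. The list median as deposited was -0.33.

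In the endosomal Toll-like receptor list 8 of 9 tested genes were higher and 1 lower, and 6 to 7 were higher under the other scalings. None of the 9 is itself a Toll-like receptor. Among the 8 is Cd14 (6.35 ± 0.262 to 13.8 ± 1.35 FPKM), which also stands among the macrophage markers above. Myd88, the adaptor of most Toll-like receptors though not of TLR3, rose 2.64-fold, from 11.04 ± 0.724 to 29.2 ± 0.886 FPKM (log2 fold change of 1.33 with an SE of 0.051, limma adjusted p = 7.91e-09). Hsp90b1, a chaperone of these receptors, fell from 469.8 ± 7.02 to 393 ± 3.66 FPKM. Tlr7 and Tlr8 were at most 0.0896 and 0.0223 FPKM in any library. Tlr9, a receptor of unmethylated DNA, had 4, 4 and 8 recovered reads in the DMSO libraries and 76, 74 and 59 in the BRQ libraries, at most 0.641 FPKM. Unc93b1, which carries the endosomal receptors to their place, had 30 to 53 reads.

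Of 15 tested genes of cytosolic DNA sensing 6 were higher and 7 lower, and 3 to 4 and 8 under the other scalings. Sting1 rose from 7.5 ± 0.31 to 9.87 ± 0.571 FPKM (log2 fold change of 0.35 with an SE of 0.0559, limma adjusted p = 0.000183). Cgas measured 7.29 ± 0.133 and 8.59 ± 0.479 FPKM and was called higher as deposited (log2 fold change 0.21, adjusted p = 0.00443), but not after the 3 other scalings (0.08 to 0.11) nor with BRQ replicate 1 alone (adjusted p = 0.0837). Ddx41, a helicase linked to DNA sensing, rose from 14.8 ± 0.72 to 28.2 ± 0.608 FPKM, and Ifi203, of the interferon-inducible p200 family, fell from 92.1 ± 1.78 to 47.2 ± 2.11 FPKM. Genes of that family are similar in sequence, so reads may be shared among them. Nucleases and other controls of self nucleic acids, the company of Trex1, had 9 of 12 genes higher and 3 lower (8 to 9 and 3 under the other scalings), with a median log2 fold change of 0.69. The subunits of RNase H2, which removes ribonucleotides from DNA, differed: Rnaseh2c rose from 66.8 ± 3.37 to 141 ± 3.29 FPKM and Rnaseh2a from 27.2 ± 0.686 to 46.3 ± 4.69, whereas Rnaseh2b fell from 7.24 ± 0.391 to 4.07 ± 0.521. Rnaset2b, the largest rise of the list by the naming rule, is uncertain because it shares sequence with Rnaset2a: it stood at 6.08, 24.1 and 7.1 FPKM in the BRQ libraries, and its call was lost without a filter (adjusted p = 0.0561) and with a robust prior (0.0773).

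Of the scaffolds and TRAF proteins that surround TBK1 and IKKε, 5 of 13 were higher and 3 lower, which became 2 and 6 to 7 under the other scalings. Traf3, a ubiquitin ligase needed downstream of MAVS and TLR3, fell from 15.0 ± 0.651 to 9.42 ± 0.459 FPKM (log2 fold change of -0.62 with an SE of 0.0515, limma adjusted p = 1.52e-06), and Tradd, an adaptor, rose from 18.5 ± 0.328 to 29.1 ± 0.937. Among the other IRF genes 3 of 8 were higher and 3 lower, and 3 and 4 under the other scalings. Irf2bp2, a corepressor that binds IRF2, fell from 34.3 ± 1.07 to 23.2 ± 1.08 FPKM.

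Stat2 and Irf9, which act downstream of the interferon receptor, fell while Irf7 rose. Stat2 went from 35.2 ± 1.36 to 20.4 ± 0.47 FPKM and Irf9 from 29.4 ± 0.902 to 22.05 ± 0.45 (log2 fold changes -0.76 and -0.40, each called by limma with an adjusted p of at most 3.87e-06 and lower under every scaling and with BRQ replicate 1 alone). Of the 6 tested genes of type I interferon and its receptor 1 was higher, Tyk2, a kinase of the receptor (13.7 ± 0.782 to 19.0 ± 1.11 FPKM), and 3 were lower, or 5 under the other scalings. Interferon transcripts themselves were near or under detection. Ifnb1 had 6, 7 and 9 recovered reads in the DMSO libraries and 11, 2 and 11 in the BRQ libraries, 0.288 ± 0.0571 and 0.304 ± 0.196 FPKM, and no difference was detectable at this depth. Ifna1, Ifna2, Ifna4 and Ifna5 were at 0 in all libraries, and 0 reads allow up to 3 reads in a library, or 0.0962 RPM (reads scaled to library size) in the shallowest. Of the negative regulators 7 of 15 were higher and 5 lower, or 7 and 7 to 8 under the other scalings. Socs3, an inhibitor of cytokine signalling, rose from 13.5 ± 0.922 to 25.3 ± 0.721 FPKM, and Usp25, a deubiquitinase of TRAF3, fell from 23.6 ± 0.328 to 12.6 ± 0.398. In the list around Zbp1 3 of 6 tested genes were higher and 2 lower, with the same counts under the other scalings.

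**Figure D4:**
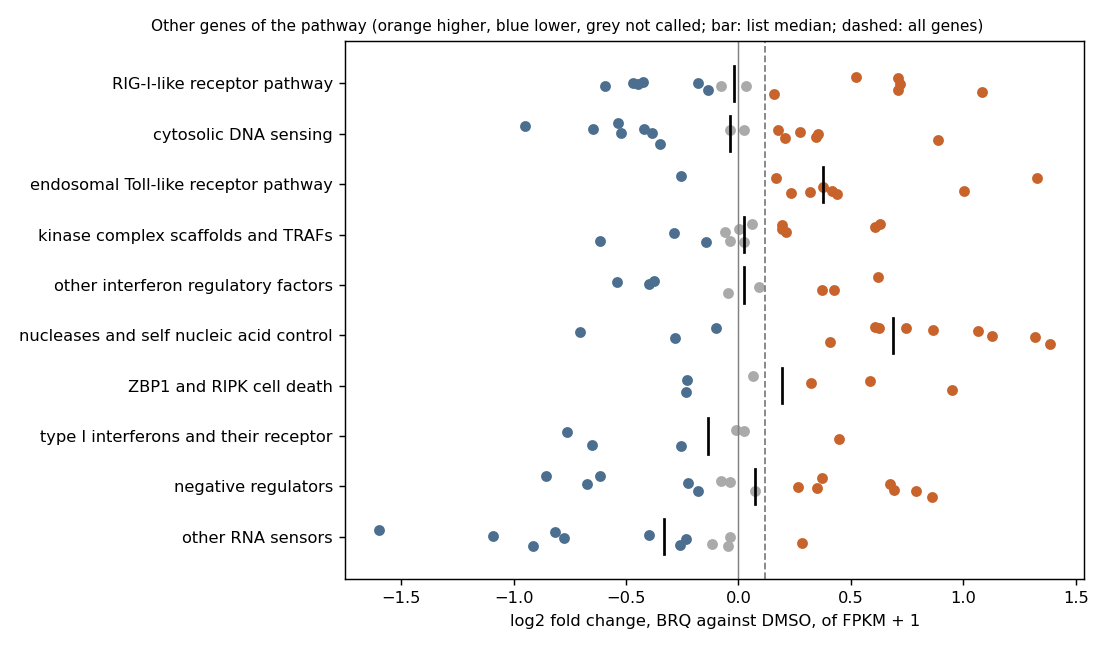
Each point is a tested gene of a role list on the y axis, at its log2 fold change of FPKM + 1, BRQ against DMSO, on the x axis; orange points were called higher, blue lower and grey not called, black bars are list medians and the dashed line the median of all tested genes. The median of nucleases and self nucleic acid control lies at 0.69 and that of other RNA sensors at -0.33.

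For each called member the pathway gene with the most similar profile was sought among 118 genes, by the root mean square difference over the 6 libraries of log2(FPKM + 1) set against the gene's DMSO mean. Irf3 and Ikbke were nearest to each other (0.039). Ifih1 was nearest to Oasl2 (0.031), Zbp1 to Stat2 (0.062), Tlr3 to Samhd1 (0.032), Mavs to Lrrfip2 (0.037), Irf7 to Rnf135 (0.055) and Trex1 to Myd88 (0.17), the loosest match. With 2 groups of 3 these distances mostly reflect the size of the difference between groups.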

How the data were processed

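RNA of 6 libraries was sequenced; per the labels' protocols it was extracted with TRIzol and prepared by standard Illumina methods. The submitters' processing notes name fastp, HTSeq and GRCm39. The sources used here do not state the aligner, annotation release, strand setting or versions. The authors deposited FPKM for 18057 genes, without pooling replicates. A further 8 columns belong to no sample here and were not used.

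Whole reads (within 0.02 to 0.08) and library sizes were recovered from the FPKM steps for 10552 of 10552 tested genes. Replicates differed from each other beyond counting noise (chi-square per gene of 4.73 to 5.57). The test was that of limma 3.58.1 (R 4.3.3, with a mean-variance trend) on log2(FPKM + 1), two-sided and without covariates, over genes whose mean reached 1 FPKM. An exact permutation test of 3 against 3 cannot go below p = 0.1 and was not used. The scripts were tested on simulated data.

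The members and lists were chosen with earlier results of these data known. Named are all members and, from each of 10 lists, the called gene with the largest change each way and at least 5 FPKM in the higher group; others are marked, and some results are not reported here. Of 136 list entries 134 were found. Alternatives were a pseudocount of 0.1, no filter, a filter at 5 FPKM, 3 scalings, a replicate block, a robust prior, limma-voom, each library left out and BRQ replicate 1 alone.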

Additional observations from a re-analysis of the deposited data

How the results depend on the processing

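All 8 called members kept their direction and call under the 16 alternatives tried. The lowest and highest log2 fold changes were 0.98 and 1.13 for Irf7, 1.41 and 1.64 for Trex1, 0.27 and 0.44 for Tlr3, -0.95 and -0.78 for Ifih1, -0.94 and -0.73 for Zbp1, -0.51 and -0.32 for Ikbke, -0.50 and -0.29 for Irf3, and -0.37 and -0.18 for Mavs. Tbk1, not called as deposited, reversed to -0.0041, -0.0099 and -0.03 after median-ratio, TMM and quantile scaling; the first of these methods moved the median of all genes from 0.12 to -0.005. It was called higher in limma-voom on recovered reads (0.13), and with single libraries left out it ranged from 0.077 to 0.19, called without DMSO replicate 1 or BRQ replicate 1; the cause was not tested. Genes called numbered 8698 of 10552 tested. Under the alternatives they ran from 6984 of 8185 (filter at 5 FPKM) to 9534 of 17181 (no filter), so these counts differ in the genes tested. Of all calls 59.1% were higher, and 49.0% to 49.5% after the 3 scalings. With the replicate block 8619 genes and 8 members were called, Tbk1 had an adjusted p of 0.0935, and no member's call changed. No pairing by replicate number was seen (correlations of deviations of 0.004, -0.032 and -0.034), but 3 libraries per group cannot exclude one. Depth limits Ifnb1, Ripk3, Tlr7 and Tlr8. The limit given for 0 reads covers counting error only, whereas the 95% intervals of fold changes rest on the spread between libraries.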
